A study of Mus musculus with 2 samples.

Results

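Chemoattractant receptors were examined as a set of 9 listed mouse genes: the chemokine receptor genes Ccr1, Ccr2, Cx3cr1 and Cxcr4, the chemokine receptor-like gene Ccrl2, the complement peptide receptor genes C5ar1 and C3ar1, and the formyl peptide receptor genes Fpr1 and Fpr2. All 9 were found by symbol among 21924 protein-coding genes of the annotation. The list was given by name and its rule used no measured value, though it was chosen with earlier results of these data known. The measurement was ChIP-seq, the sequencing of DNA pulled down with an antibody to a chromatin mark, here histone H3 trimethylated at lysine 36 (H3K36me3), in C57BL/6J mouse macrophages derived from bone marrow and left without stimulus. The series holds 1 group of 2 biological replicates. The labels list them as separate biosamples under 1 donor record and give neither sex nor age, and differences between them may be technical. No comparison between conditions was possible, and the values below compare genes within these cells. The files are peak lists without read counts, so the depth is unknown, and where a gene had no peak the mark was not detected, which does not show that it was absent. Replicate 1 held 32098 peaks over 28.5 Mb and replicate 2 held 58505 over 79.4 Mb. Replicate 2 thus covers more of the genome, and the replicates are given side by side throughout. Of 7 macrophage marker genes, all 7 reached 20% of their body under peaks in replicate 2 and 5 had a peak in both replicates, Mertk among them with 28.9% and 61.1% of its body in replicates 1 and 2, while none of the 8 neutrophil, 5 T cell, 4 B cell, 5 dendritic cell or 4 fibroblast markers had any peak.

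The products of these genes sit in the cell surface and turn a gradient of an attractant into directed movement, mostly through inhibitory G proteins and phosphoinositide 3-kinase. Monocytes and macrophages use Ccr2 and Ccr1 to follow inflammatory chemokines, Cx3cr1 to sense fractalkine, Cxcr4 to sense Cxcl12, the complement receptors to sense the peptides released when complement is cleaved, and the formyl peptide receptors to sense bacterial and mitochondrial peptides. Ccrl2 binds the attractant chemerin without ordinary G protein signalling. H3K36me3 is laid down behind elongating RNA polymerase II and usually builds up towards the 3′ part of a gene. Receptor genes of this class are compact, often with a short noncoding first exon, an intron and an exon that holds the coding sequence.

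In the transcript with the longest coding sequence, 7 of the 9 genes have their coding sequence in 1 exon, as do 3570 of the 21924 coding genes. The exceptions were Cxcr4, with 21 and 1056 coding bases in its exons, and C5ar1, whose first exon holds only 3 coding bases, the start codon, and whose other exon holds 1050. The sequences at these joins show how nearly both exceptions share the plan of the rest. They are from the RefSeq GRCm38.p6 genome, the assembly also called mm10, and are read along each gene with coding bases in capitals.
C3ar1 intron end and start of the coding sequence, chr6:122851217-122851284, minus strand: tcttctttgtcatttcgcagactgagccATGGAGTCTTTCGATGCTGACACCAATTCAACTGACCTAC
C5ar1 first coding bases and start of the intron, chr7:16259125-16259147, minus strand: ATGgtgagtggattcctctccct
C5ar1 intron end and start of the main coding part, chr7:16249051-16249110, minus strand: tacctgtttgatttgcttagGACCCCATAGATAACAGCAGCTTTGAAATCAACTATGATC
Cxcr4 first coding bases and start of the intron, chr1:128592169-128592209, minus strand: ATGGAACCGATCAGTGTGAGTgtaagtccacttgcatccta
Cxcr4 intron end and start of the main coding part, chr1:128589862-128589921, minus strand: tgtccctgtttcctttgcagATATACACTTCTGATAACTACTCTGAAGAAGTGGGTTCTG
In C3ar1 the start codon follows 8 noncoding bases of the last exon, whereas in C5ar1 the start codon stands alone before the intron.

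The genes fell into 3 kinds. C3ar1, C5ar1 and Cxcr4 had peaks of their own in both replicates, on the coding exon. Cx3cr1 had peaks in its annotated body in both replicates, all of them inside other genes. Ccr1, Ccr2, Ccrl2, Fpr1 and Fpr2 had no peak in any of the 4 deposited lists within their bodies. In these bulk samples a mark on fewer cells and less of it per cell cannot be told apart.

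Counting any base under a peak, 4 of the 9 genes (44.4%) had a peak in both replicates, and the background was 28.8% of all coding genes. The same 4 had a peak in either replicate, beside 38.6% of all coding genes. Among genes with coding sequence in 1 exon the background was far lower, at 3.56% or 127 of 3570, and 2 of the 7 receptor genes of that structure, C3ar1 and Cx3cr1, had a peak in both. That class includes many olfactory receptor (Olfr), keratin-associated protein (Krtap) and histone genes with 0 covered bases in both replicates. The part of such families in its low shares was not tested, so the class matches the receptor genes in coding exon number only. Outside bases shared with another coding gene the count was 3 of 9, beside 26.3% of all coding genes, and Cx3cr1 was the gene that dropped out. Coding exons were touched in both replicates in 3 of 9, beside 24.2% of all coding genes. For genes with 1 coding exon that background was 2.61%, and 1 of 7 receptor genes, C3ar1, was touched. At 20% of the body, 1 of 9 genes was reached in replicate 1 (background 7.64%) and 2 of 9 in replicate 2 (background 23.3%), a share of 22.2% that lies near the background. Among genes with 1 coding exon the background in replicate 2 was 3.36%, and C3ar1 was the 1 of 7 that reached it. With 9 genes these shares are coarse, since 1 gene is 11.1% of the list.

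**Figure D1:**
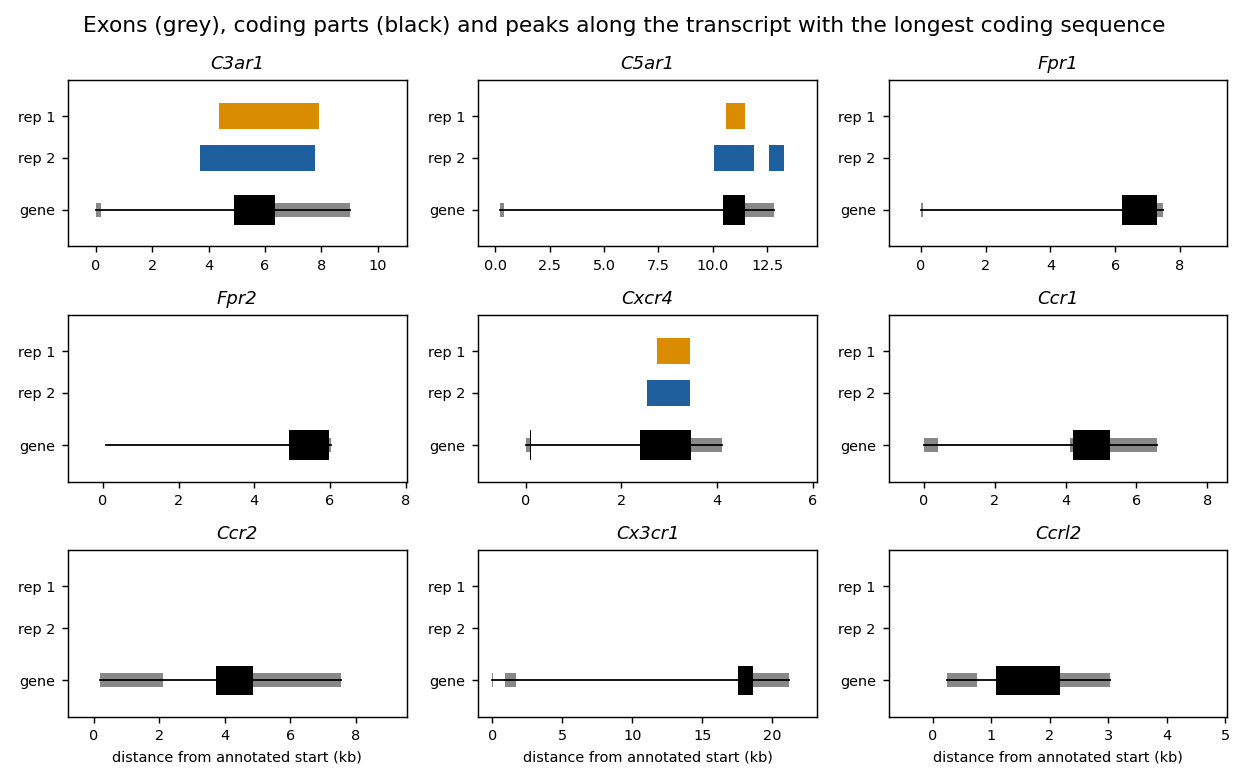
Exons (grey), coding parts (black) and the peaks of replicate 1 (orange) and replicate 2 (blue) along the transcript with the longest coding sequence of each receptor gene. The x axis is the distance from the annotated gene start in kb, in the direction of transcription, and the y axis separates the gene from the replicates. Peaks lie over the coding exon of C3ar1, C5ar1 and Cxcr4, and the other 6 panels hold none.

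C3ar1, the receptor of the complement fragment C3a, was the most widely covered of the 9 genes. It lies on the minus strand of chr6:122847138-122856161 (mm10), 9.02 kb. Replicate 1 had 39.3% of the body under peaks and replicate 2 had 45.3%, a mean of 42.3% ± 4.22 (SD, n = 2). Each replicate had 1 peak there, and these peaks were closely alike. In replicate 1 it was chr6:122848235-122851783, 3549 bp long, with an enrichment of 4.74 as deposited. In replicate 2 it was chr6:122848374-122852461, 4088 bp long, with an enrichment of 6.95. They shared 3410 bp, which is 96.1% of the first and 83.4% of the second. Both were long and high for their own list: 99.6% of the replicate 1 peaks were shorter and 99.2% had a lower enrichment, and in replicate 2 these shares were 96.5% and 99.5%. The medians of the lists were 743 bp and 987 bp.

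Along C3ar1 the peak began well inside the intron and ended within the 3′ untranslated part. It spanned 4.38 to 7.93 kb from the annotated start in replicate 1 and 3.70 to 7.79 kb in replicate 2. All 1431 coding bases were covered in both replicates. Of the untranslated exon bases 55.6% and 50.8% were covered, and of the intron bases 11.0% and 25.4%. Only 13 of the 21924 coding genes (0.0593%) had every coding base under peaks in both replicates. Of these, 9 have 1 coding exon, 0.252% of that class. Besides C3ar1, the 13 include the complement gene C1qb, the zinc finger gene Zfp146 and the peroxisome gene Pex2, chosen here after their values were seen. The summits, the highest points of the peaks, were at base 933 of the coding sequence in replicate 1 and at base 935 in replicate 2, 2 bp apart. The bases around them are printed with the summits in capitals, since this is where the replicates placed the mark most closely.
C3ar1 coding bases at the summits, chr6:122850297-122850349, minus strand: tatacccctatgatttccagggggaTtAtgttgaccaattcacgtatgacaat
In order of covered share C3ar1 stood 327th of 21924 coding genes in replicate 1 and 2258th in replicate 2. Among the 3570 genes with 1 coding exon it stood 9th and 39th, and among the 1327 of these with bodies of 5 to 20 kb, 3rd and 11th. Only 127 of the 3570 had a peak in both replicates, so these ranks are set against a class with little cover.

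C5ar1, the receptor of the complement fragment C5a, lies on the minus strand of chr7:16246743-16259540, 12.8 kb. Its body was covered at 7.17% in replicate 1 and 16.1% in replicate 2, a mean of 11.6% ± 6.33 (SD, n = 2). Most of the body is intron. Of the coding bases 87.0% and 99.7% were under peaks. In replicate 1 the gene had 1 peak, chr7:16248040-16248956, 917 bp long with an enrichment of 3.52, of which 916 bases were coding. In replicate 2 the peak over the coding exon was chr7:16247628-16249482, 1855 bp long with an enrichment of 4.17, and held 1050 coding, 413 untranslated and 392 intron bases. The 3 coding bases left uncovered in replicate 2 are the start codon in the first exon. Replicate 2 also had a peak of 661 bp across the 3′ end, chr7:16246290-16246950, with 208 bases in the last exon and 453 past the annotated end. The summits over the coding exon were 149 bp apart, at bases 561 and 412 of the main coding part, and are in capitals below.
C5ar1 coding bases at the summits, chr7:16248505-16248704, minus strand: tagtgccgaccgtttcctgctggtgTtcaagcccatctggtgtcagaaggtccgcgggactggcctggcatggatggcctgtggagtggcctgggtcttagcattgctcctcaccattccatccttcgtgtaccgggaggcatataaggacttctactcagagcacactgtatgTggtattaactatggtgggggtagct
C5ar2, which encodes the other C5a receptor, lies 2.59 kb from C5ar1 and had no peak in replicate 1. In replicate 2 it was covered over 17.5% of its body and 95.3% of its coding exons.

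Cxcr4, the receptor of Cxcl12 that holds haematopoietic cells in the marrow, is short, on the minus strand of chr1:128588199-128592293, 4.09 kb. Replicate 1 covered 17.0% of the body and replicate 2 covered 22.1%, a mean of 19.5% ± 3.63 (SD, n = 2). All covered bases were coding. Of the coding bases 64.5% lay under peaks in replicate 1 and 84.0% in replicate 2. The peaks were chr1:128588857-128589551, 695 bp with an enrichment of 3.52, and chr1:128588853-128589757, 905 bp with an enrichment of 4.69. The replicate 1 peak lay wholly inside the replicate 2 peak. The first coding exon, the intron and the untranslated parts lay outside both peaks, whose borders on the 3′ side were 4 bp apart. The summits were 247 bp apart, at bases 883 and 636 of the main coding part, and are the capitals in the run below.
Cxcr4 coding bases at the summits, chr1:128588994-128589291, minus strand: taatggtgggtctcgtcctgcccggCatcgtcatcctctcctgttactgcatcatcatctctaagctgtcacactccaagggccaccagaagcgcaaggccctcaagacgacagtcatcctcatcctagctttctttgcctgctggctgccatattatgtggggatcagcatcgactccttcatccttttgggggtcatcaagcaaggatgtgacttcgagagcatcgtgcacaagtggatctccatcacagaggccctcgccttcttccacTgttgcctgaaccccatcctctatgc
The authors' replicated list had a further peak over the 3′ end of Cxcr4, chr1:128587682-128588696, at a lower enrichment of 2.49, which neither replicate's list held. The nearest other peaks were 197 kb and 174 kb away in replicates 1 and 2, in Dars.

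In the lists of the separate replicates, the summits in these 3 genes lay in the coding exon, except that of the replicate 2 peak at the 3′ end of C5ar1. The pooled and replicated lists also had a C5ar1 peak of 460 bp with its summit in the intron, chr7:16249473-16249932, at an enrichment of 3.38. Among the 127 genes with 1 coding exon and a peak in both replicates, 93 (73.2%) had a peak on that exon in both. The summits of C3ar1 were 2 bp apart, closer than the 149 bp of C5ar1 and the 247 bp of Cxcr4, where the peaks of replicate 1 were shorter and of lower enrichment. The −log10 q of the replicate 1 peak was 9.42 in C3ar1 and 4.72 in both other genes. With a −log10 q of at least 5 required, C5ar1 and Cxcr4 kept a peak in replicate 2 alone.

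**Figure D2:**
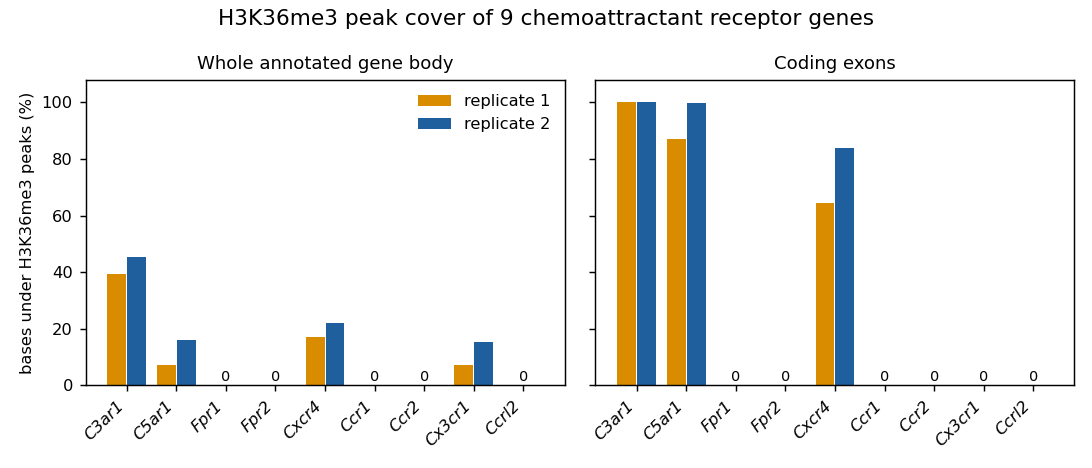
Percent of bases under H3K36me3 peaks (y axis) in each of the 9 receptor genes (x axis), for the whole annotated body on the left and the coding exons on the right. Bars are the values of replicate 1 (orange) and replicate 2 (blue), and 0 marks genes without a peak. Coding exons of C3ar1 are covered in full, those of Cx3cr1 not at all, although 7.00% and 15.4% of its annotated body are.

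Cx3cr1, the fractalkine receptor, has by far the longest annotated body of the 9, chr9:119901616-120069879 on the minus strand, 168 kb. Of this body 7.00% lay under peaks in replicate 1 and 15.4% in replicate 2, a mean of 11.2% ± 5.92 (SD, n = 2), in 13 and 11 peaks. Every one of these peaks lay wholly inside another protein-coding gene. Wdr48, which encodes a partner of deubiquitinating enzymes, held 85.5% of the covered bases in replicate 1 and 68.3% in replicate 2. Csrnp1, a nuclear protein gene, held 14.5% and 16.1%. Gorasp1, which encodes a Golgi stacking protein, held none in replicate 1 and 15.6% in replicate 2. The 78786 bp of the body that overlap no other coding gene had 0 covered bases in either replicate. The exons had 0 as well, the coding exon at chr9:120051273-120052334 included.

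The length of the Cx3cr1 body rests on 1 of 3 annotated transcripts, which spans 167 kb and ends in an exon of 12 bp at chr9:119901616-119901627. The other transcripts span 19.6 kb and 21.2 kb and had 0 covered bases in both replicates. The covered share of Cx3cr1 thus falls from 15.4% to 0 in replicate 2 when the gene is taken as either of these. Outside its body the nearest peaks were 51.2 kb and 50.5 kb away, in Slc25a38.

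**Figure D3:**
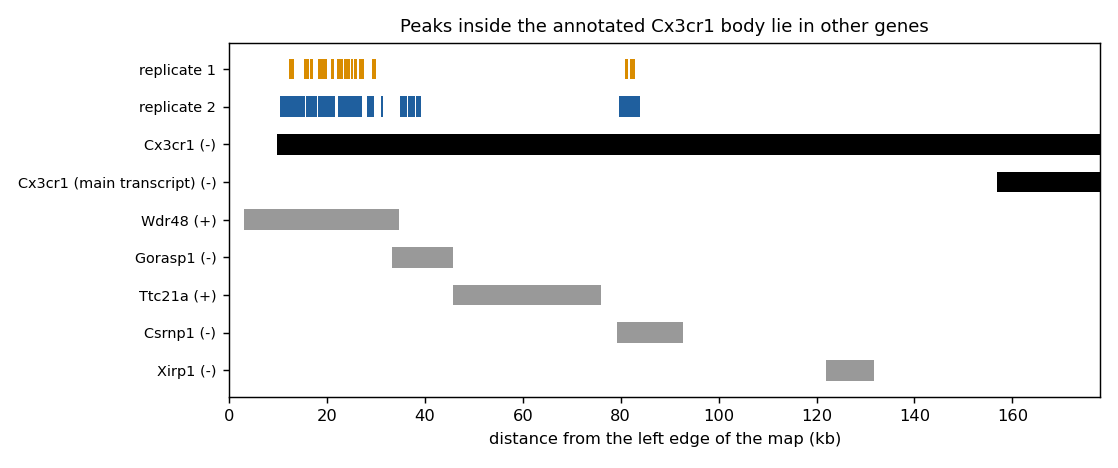
Peaks of replicate 1 (orange) and replicate 2 (blue) over the annotated Cx3cr1 body, with Cx3cr1 in black and the overlapping coding genes in grey. The x axis is the distance from the left edge of the map in kb, strands are in parentheses, and the main transcript is the one with the longest coding sequence. The peaks stand over Wdr48, Gorasp1 and Csrnp1, and the main transcript of Cx3cr1 at the right holds none.

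Ccr1, a receptor of inflammatory chemokines such as Ccl3 and Ccl5, lies on the minus strand of chr9:123962124-123968692, 6.57 kb, and Ccr2, the receptor of Ccl2, on the plus strand of chr9:124101950-124113557, 11.6 kb. Both had 0 covered bases in each replicate and in the pooled and replicated lists. The nearest peaks to Ccr1 were 118 kb and 119 kb away in replicates 1 and 2, in Fyco1. Ccr2 was 155 kb from the nearest peak in replicate 1. The distance in replicate 2 was shorter and is not reported here.

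These genes belong to a cluster of receptor genes on chromosome 9, described here from Ccr9 to Ccr2, chr9:123678439-124113557, 435 kb with 9 coding genes. Its sides differed. The 174 kb from Ccr9 to the edge of Xcr1 held 14 peaks in replicate 1 and 22 in replicate 2, over 6.25% and 22.7% of the bases. The remaining 261 kb, from Xcr1 to Ccr2, held 0 peaks in both replicates and in the pooled and replicated lists. On the covered side most bases belonged to Fyco1, an adaptor gene for vesicle transport and not a receptor, with 15.8% and 52.8% of its body. Lztfl1, a gene of ciliary transport, had 0 and 14.7%. Cxcr6 had 0 and 26.3%, but it is nested in Fyco1 on the other strand, so all of its covered bases are also Fyco1 bases. Ccr9 had 0.292% and 4.76%, with 0 of its coding bases covered. Of its covered bases in replicate 2, 1607 of 5039 lay outside other coding genes, and in replicate 1 all 309 did. On the other side Xcr1, Ccr1, Ccr1l1, Ccr3 and Ccr2 all had 0 in both replicates. The gap of 133 kb between Ccr1 and Ccr2 held no peak either.

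**Figure D4:**
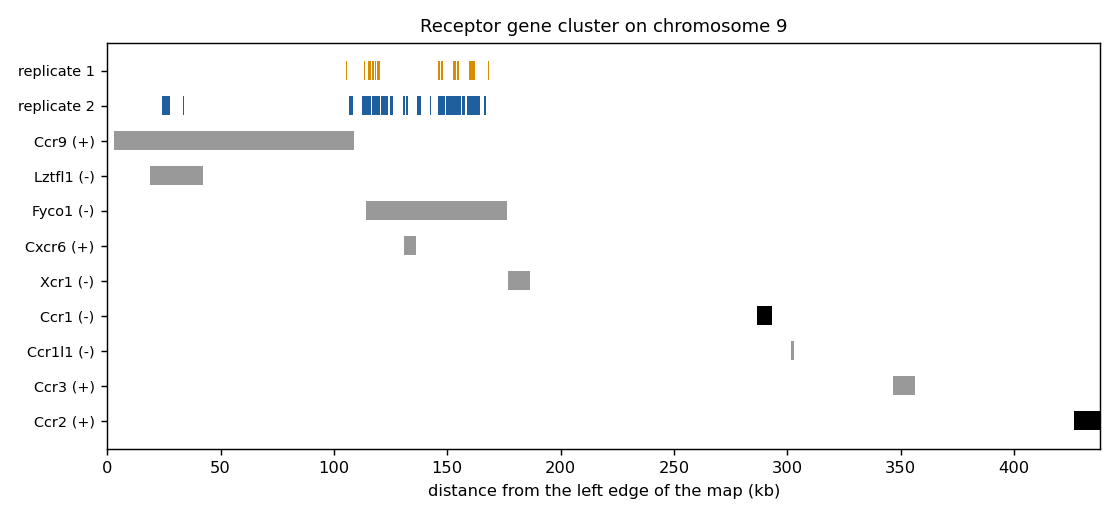
Peaks of replicate 1 (orange) and replicate 2 (blue) along the receptor gene cluster of chromosome 9, with Ccr1 and Ccr2 in black and the other coding genes in grey. The x axis is the distance from the left edge of the map in kb and strands are in parentheses. Most peaks stand over Fyco1 and around it, and from Xcr1 to Ccr2 the map holds none.

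Cx3cr1 and Ccrl2 are on chromosome 9 too but outside the cluster. Cx3cr1 lies 3.89 Mb from Ccr1, and Ccrl2 lies 8.84 Mb from Cx3cr1 and 12.9 Mb from Ccr1. Ccrl2, on the minus strand of chr9:111054486-111057519, is the shortest of the 9 at 3.03 kb. It had 0 covered bases in both replicates, and the nearest peaks were 133 kb and 62.9 kb away, in Lrrfip2. The pooled and replicated lists had a peak of 347 bp, chr9:111053685-111054031, 0.454 kb past its 3′ end, with an enrichment of 2.81. Neither replicate's own list had it.

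Fpr1 and Fpr2 stand 3.88 kb apart on chromosome 17, on opposite strands, Fpr1 at chr17:17876471-17883940, 7.47 kb, and Fpr2 at chr17:17887824-17893952, 6.13 kb. Both had 0 covered bases in all 4 lists. They were also the farthest of the 9 from any peak, Fpr1 at 298 kb and 297 kb and Fpr2 at 309 kb and 308 kb in replicates 1 and 2, in Lnpep. The annotated body of Fpr3, another formyl peptide receptor gene, overlaps 6101 bp of Fpr2 and had no peak either.

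Some of these genes resemble their neighbours closely, and reads from such stretches may not map to 1 place. In the coding bases of Fpr2, 48.7% of all 32-base runs occur once in the genome, and in Ccr2 83.5%. In Ccr1 the share is 98.5% and in Fpr1 98.2%, and in the other 5 genes it is 100%. Fpr2 and Fpr3 coding sequences are 88.1% identical. Fpr1 and Fpr2 are 71.1% identical. The longest run that Fpr2 shares with Fpr3 is printed in both genes, in lower case throughout because it has no difference to mark.
Fpr2 shared run, chr17:17892960-17893053, plus strand: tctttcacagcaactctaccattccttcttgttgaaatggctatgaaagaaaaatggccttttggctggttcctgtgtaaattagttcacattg
Fpr3 shared run, chr17:17970685-17970778, plus strand: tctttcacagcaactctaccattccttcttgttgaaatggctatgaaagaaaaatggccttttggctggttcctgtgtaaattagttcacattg
No source used here gives the read length or the rule for reads with several matches, so the part of repeated sequence in the empty Fpr2 and Ccr2 bodies was not tested. Over the whole span of the main transcript the shares of runs found once were 77.7% in Ccr1, 82.7% in Cx3cr1, 83.1% in C5ar1 and 87.1% in Fpr2, and from 93.4% to 99.5% in the other 5 genes.

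Up to 50 kb, gene length moved with detection. Of all coding genes, 6.55% of those of 2 to 5 kb had a peak in both replicates, 18.4% of those of 5 to 10 kb and 35.3% of those of 10 to 20 kb. In genes with 1 coding exon these shares were 1.82%, 2.67% and 12.4%. Apart from Cx3cr1, the receptor genes fall in these bins. For longer bodies the share was 42.9% at 20 to 50 kb and lower, 36.5%, at 50 kb and over, the bin of Cx3cr1. In genes with 1 coding exon it was 15.5% and 13.2% in these longer bins. Of the 4 receptor genes of 5 to 10 kb, all with 1 coding exon, C3ar1 had peaks and Ccr1, Fpr1 and Fpr2 had none. The part of body length in the values of the receptor genes was not tested.

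**Figure D5:**
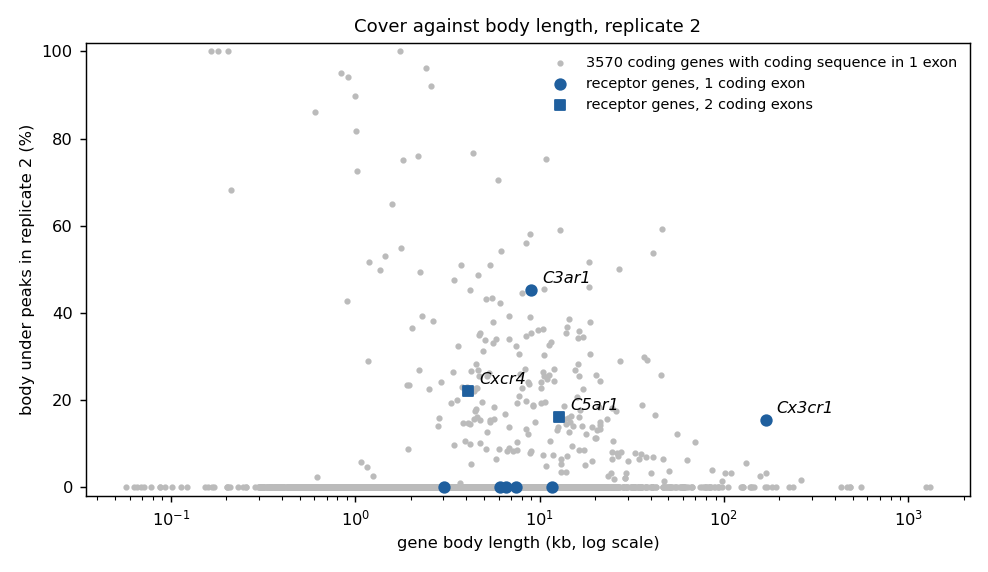
Percent of the gene body under replicate 2 peaks (y axis) against body length in kb (x axis, log scale). Grey points are the 3570 genes with coding sequence in 1 exon, blue circles the 7 receptor genes of that class and blue squares Cxcr4 and C5ar1, which have 2 coding exons. C3ar1 at 45.3% stands above most grey points of its length, and 5 receptor genes lie at 0.

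By covered shares in the 2 replicates, the nearest genes with a body length within a factor of 2 were taken for each receptor gene with a peak in both. For C3ar1 and Cx3cr1 the search was among genes with 1 coding exon, and for Cxcr4 and C5ar1 among all genes with more than 1, so those neighbours need not have 2. For C3ar1, among 1442 genes, they were Zfp146 (28.0% and 34.7%) and Zfp260 (31.1% and 59.0%), zinc finger genes 15.5 and 16.0 percentage points away. For Cxcr4, among 3414, they were Psmg3 (16.4% and 21.2%) and Mrto4 (18.2% and 21.5%), 1.12 and 1.41 points away. For C5ar1, among 6891, they were Nrbf2 (7.47% and 16.0%) and Pdia4 (6.93% and 15.8%), 0.315 and 0.397 points away. For Cx3cr1, among 30, Lrrc8d (1.76% and 5.52%) and B3gnt2 (2.40% and 3.22%) were nearest, 11.2 and 13.0 points away. Cxcr4 and C5ar1 each had genes within 1.41 points of their cover. The distances of C3ar1 and Cx3cr1 cannot be compared with these. They came from smaller pools of genes with 1 coding exon, a class in which 3.56% had a peak in both replicates.

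Among 33 other chemoattractant receptor genes, 2 (6.06%) had a peak in both replicates, Ptafr and Ccr9, the latter with 0.292% of its body in replicate 1. A peak in either replicate was found in 8, beside 38.6% of all coding genes, and 25 had none. Among the 8, all covered bases of Cxcr6 and Ptgdr2 lay inside other coding genes. The background for a peak in both was 28.8% of all coding genes and 3.56% of those with 1 coding exon, a class that holds 25 of the 33. Their medians were 0 in both replicates, as they were over the 9 genes and over all coding genes. At 20% of the body, 1 was reached in replicate 1 (3.03%, beside 7.64% of all coding genes) and 4 in replicate 2 (12.1%, beside 23.3%). Ptafr, the receptor of platelet-activating factor, had 21.5% and 51.7% of its body and 87.8% and 100% of its coding exon covered. Cmklr1, a chemerin receptor, had 0 and 29.3%, with 100% of its coding exon covered in replicate 2, and S1pr1, a sphingosine 1-phosphate receptor, had 0 and 26.9%. Cxcr6 was the other of the 4. At the low end the list gave Ackr1 and Ackr2, atypical chemokine receptor genes, with 0 in both.

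The listed signalling genes below the receptors had peaks more often than coding genes as a whole. Of 34 such genes, none with its coding sequence in 1 exon, 25 (73.5%) had a peak in both replicates, beside 28.8% of all coding genes, and 3 had none, Grk5, Rgs1 and Rgs2. Medians of the covered share were 9.17% and 33.1% in replicates 1 and 2, where both medians over all coding genes were 0. At 20% of the body 6 were reached in replicate 1 (17.6%, beside 7.64% of all coding genes) and 26 in replicate 2 (76.5%, beside 23.3%). The highest were Arrb2, which encodes an arrestin that turns receptors off (37.8% and 67.0%), the GTPase gene Rac2 (34.9% and 68.8%), its exchange factor gene Vav1 (34.4% and 64.7%) and the guanine nucleotide exchange factor gene Arhgef1 (23.3% and 64.5%). Grk5, a receptor kinase gene, and Rgs1, which shortens G protein signals, were the lowest, with 0 in both. The bodies of these genes are longer, with a median of 27.6 kb beside 7.47 kb for the 9 receptor genes, and the part of length and exon number in this difference was not tested. This list too was chosen with earlier results of these data known, so its shares describe the listed genes and not the pathway at large.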

How the data were processed

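Peak lists of H3K36me3 ChIP-seq from 2 replicates were used, with the authors' pooled and replicated lists as alternatives. Per the file headers, the replicate lists were called on each replicate's own alignments with control files, on mm10. Aligner and caller were not given in the sources used here. A deposited peak has a display score, a fold enrichment (a ratio over the caller's background), a −log10 p and a −log10 q, and the offset of its summit, all the authors' values, used only within a list. No read counts were used, so depth is unknown and no interval can be given.

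Gene bodies came from GENCODE M21 (GRCm38, the same assembly as mm10), over all transcripts, taking the longest record of each symbol. The covered share is the percent of bases under peaks, and 20% counted as widely covered. Coding exons were taken from the annotation, and the transcript with the longest coding sequence decided the number of coding exons. Coding sequences were aligned with Biopython 1.88, and all 32-base runs were counted over the 21 chromosomes of the RefSeq GRCm38.p6 sequence. Python 3.11.15, numpy 2.4.6 and matplotlib 3.10.9 were used, and the interval arithmetic was tested on simulated data.

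The named genes are the 9 receptor genes, the coding genes of the cluster, the 4 highest and 2 lowest of each list by mean covered share (ties by symbol), and for each receptor gene with a peak in both replicates the 2 genes nearest in covered share. Others are said to be chosen after their values were seen, are the members behind a small count, or are neighbours at a peak. Results of 1 further gene are not reported here. The genes and lists were chosen with earlier results of these data known. No tests were made, since there is 1 group.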

Additional observations from a re-analysis of the deposited data

How the results depend on the processing

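The count of receptor genes with a peak in both replicates, 4, became 2 with a −log10 q of at least 5 (Cx3cr1 and C3ar1). Of these only C3ar1 had peaks of its own, since those of Cx3cr1 lay inside other genes. The count was also 2 with at least 10% of the body covered in each replicate (Cxcr4 and C3ar1). It was 4 with either replicate left out, and 3 for exons, for coding exons, for bodies without shared bases and, an alternative chosen after seeing the data, for the main transcript, with Cx3cr1 lost each time. The count covered at 20% in replicate 2, 2, became 4 at a limit of 10%, 0 at 50% and 3, with C5ar1 added, for exons and for coding exons. Taken in replicate 1 instead, this count was 1. Leaving out replicate 1 could not change it, since it uses replicate 2 alone. The share of all coding genes is not given for the −log10 q, 10% and 50% settings. The counts at those settings show how the list moved and cannot be set against a background. The count with a peak in either replicate stayed between 3 and 4. Over 11 alternatives the mean covered share was 0 throughout for Ccr1, Ccr2, Ccrl2, Fpr1 and Fpr2, and ran from 34.6% to 100% for C3ar1, from 11.1% to 74.3% for Cxcr4, from 7.17% to 93.4% for C5ar1 and from 0 to 17.0% for Cx3cr1, the highest values of the first 3 being those of the coding exons alone. No paired analysis was possible because there is 1 group. Peak lists do not show how far below the caller's limit an uncovered gene lies.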
